A study of Mus musculus with 18 samples.

Results

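The clustered protocadherins are 57 protein-coding genes of the 21887 protein-coding entries in the mm10 (GRCm38.p6) RefSeq gene table, chosen by a symbol that begins with Pcdha, Pcdhb or Pcdhg. They comprise 14 alpha, 22 beta and 21 gamma genes in tandem on mouse chromosome 18. The alpha genes span 36930285 to 37188897, the beta genes 37264998 to 37521419 and the gamma genes 37661775 to 37841873. Each cluster was taken with 50 kb on each side, and the 3 regions together cover 971 kb. Other genes in these regions are Slc25a2, Taf7 and Diaph1, which lie around the gamma cluster, the transcribed pseudogene Pcdhgb8 within it, and Gm37013, Gm38666 and Gm38667, gene models that join alpha and gamma exons.

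Each clustered protocadherin is a cell surface adhesion protein of the cadherin family, and the genes are best known from neurons, where single cells express different combinations that serve self-recognition. In the alpha and gamma clusters every gene has its own variable first exon and promoter, and the variable exon is spliced to constant exons shared by the cluster, whereas each beta gene is a single coding exon. CTCF, a DNA-binding protein that together with cohesin shapes chromatin loops, is known to bind many of these promoters and distal elements in neural cells. Pcdhac1, Pcdhac2, Pcdhgc3, Pcdhgc4 and Pcdhgc5 are classed as a separate subtype, the C-type genes.

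The data are 18 ChIP-seq peak lists from the liver of C57BL/6 mice aged 8 weeks. Controls (WT) were CTCF fl/fl Albcre- and knockouts (KO) were CTCF fl/fl Albcre+, so both genotypes carry the floxed Ctcf alleles. The albumin promoter drives Cre in hepatocytes, and the other cells of the liver keep Ctcf. There were 2 WT and 2 KO lists for CTCF, 2 and 2 for the nuclear receptor PPARg, 3 and 3 for H3K27ac, a mark of active enhancers and promoters, and 1 and 1 each for H3K4me3, a mark of active promoters, and H3K27me3, a mark of Polycomb repression. The CTCF libraries and PPARg WT 2, KO 7 and KO 8 came from overnight-fasted males and were made by tagmentation, whereas the others were made with a ligation kit from mice of unstated sex.

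The lists hold no reads, so the sequencing depth behind each is unknown. For CTCF there were 27585 and 24566 peaks in the WT lists, against 18597 and 20323 in KO. The growth text of the histone libraries and of PPARg WT 4 describes neural stem cells, although their tissue is given as liver. H3K27ac lay at all 8 of 8 hepatocyte marker genes in each of its 6 libraries and at 0 to 1 of 8 neural stem cell markers. H3K4me3 lay at 7 of 8 hepatocyte markers in WT and 6 of 8 in KO, and at 0 of 8 neural stem cell markers in both. The lists do not show whether Ctcf was deleted. In whole liver, fewer cells with a bound site and less binding per cell cannot be told apart.

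CTCF was called at protocadherin gene starts in WT liver, and fewer of these starts had a peak in the KO lists, which are shorter. With lists of equal number of peaks, 1 of 5 start sites called in both WT libraries had no KO peak. A CTCF peak lay within 1 kb of the start of 12 of 57 members (21.1%) in WT164 and 8 members (14.0%) in WT165, against 3 members (5.26%) in both KO160 and KO163. The comparison set for starts was the 17492 protein-coding genes off chromosome 18 with a listed start, and genes without one were left out. Its shares were 12.6% and 10.8% in the WT lists, against 9.04% and 9.24% in KO. A member's start was the lower coordinate of its span, so members and comparison set may not define starts alike. The members' share was above that of the comparison set in both WT lists and below it in both KO lists. With 57 members, the gap in WT165 and in both KO lists amounts to only a few genes. The WT and KO counts do not overlap, but a comparison of 2 with 2 libraries cannot give an exact permutation p below 0.33.

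The 3 clusters differed in where CTCF was called. The alpha region held 0 CTCF peaks in all 4 libraries. The beta region held 5 peaks in WT164 and 2 in WT165, all at gene starts, and 0 in both KO libraries. The gamma region held 15 and 13 peaks in WT (14.0 ± 1.41, SD, n = 2) and 9 and 10 in KO (9.5 ± 0.707, SD, n = 2). For both the beta and the gamma region the two-sided exact permutation p was 0.33, the smallest it can be. Over the 3 regions the KO to WT ratio of mean peak counts was 0.543, and over the whole CTCF lists it was 0.746.

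**Figure D1:**
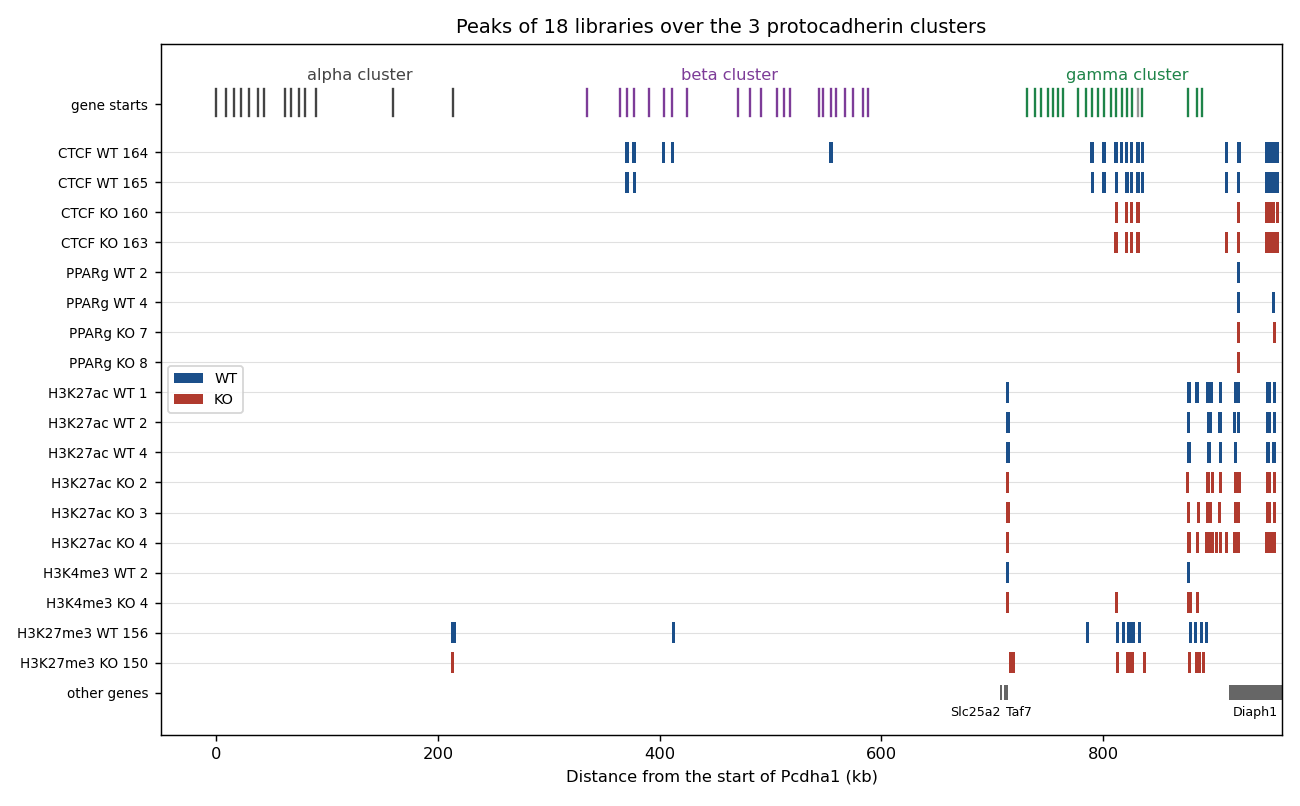
Peaks of the 18 libraries over the 3 clusters, 1 row per library, against distance from the start of Pcdha1 in kb. Blue marks WT and red marks KO peaks, black, purple and green ticks mark alpha, beta and gamma gene starts, and peaks narrower than 3 kb are drawn 3 kb wide. The alpha cluster holds no CTCF peak, the beta cluster holds CTCF peaks in WT libraries, and most peaks of every target lie in the gamma region.

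The CTCF peaks merged into 20 sites, of which 15 were called in both WT libraries and 5 in WT164 alone. Of those 15 sites, 5 (33.3%) were called in neither KO library, against 13.5% of all such sites in the genome, and 9 were called in all 4 libraries, against 72.3%. KO160 had a peak at 9 of the 15 and KO163 at 10, against 76.6% and 82.2% of such sites in the genome. No site was called in both KO libraries and in neither WT library, a class that held 0.308% of KO sites in the genome. The sites fell into 13 at gene starts (12 members and Pcdhgb8) and 7 elsewhere, at the shared 3′ end of the gamma genes and inside Diaph1. Of the sites called in both WT libraries, 5 of 9 at gene starts and 0 of 6 elsewhere had no peak in either KO library. These counts depended on the unequal length of the lists. With all 4 lists shortened to the same number of peaks, 1 of 8 sites had no KO peak, against 3.96% in the genome (1 of 5 at starts and 0 of 3 elsewhere). With a stricter q, 2 of 8 had no KO peak that met the cut, against 16.6%. Of these 2, Pcdhga11 has weaker peaks in both KO lists. Without WT165, 10 of 20 sites had no KO peak, against 26.2%, with 1 of 7 elsewhere, and without KO163 1 of 6 elsewhere had no KO peak.

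Fold below is the authors' own fold enrichment of a peak over background, and because the lists are not scaled to each other, folds are set side by side without a test. The median fold of the lists was 9.04 and 8.94 in WT, against 8.15 and 8.31 in KO. At the start of Pcdhb3 (37300452 to 37301131) the fold was 5.86 in WT164 and 4.42 in WT165, with no KO peak. At Pcdhb4 (37307156 to 37307372) it was 4.87 and 4.47, also with no KO peak. These 2 beta sites were among the weaker CTCF peaks of the WT lists, at a mean percentile of 10.6 and 6.09, ranked by the deposited -log10 q within each list. In WT164 their percentiles were 20.7 and 9.99, and in WT165 they were 0.505 and 2.19, near the floor of that list. Pcdhb6, Pcdhb7 and Pcdhb17 had a peak in WT164 alone, at a fold of 4.33, 4.87 and 4.87.

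Within the gamma cluster, the starts without a KO peak lay on both sides of a run of starts that kept theirs. On the upstream side, Pcdhgb4 (37720093 to 37720498) had a fold of 3.95 in WT164 and 7.49 in WT165, and Pcdhgb5 (37730618 to 37731008) had 6.87 and 6.66. On the downstream side, Pcdhga12 (37765127 to 37766114) had 9.20 and 11.7. None of the 3 had a peak in KO160 or KO163.

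The run that kept its peaks consisted of Pcdhgb6, Pcdhgb7, Pcdhga11 and the pseudogene Pcdhgb8. At Pcdhgb6 (37741610 to 37742134) the fold was 17.4 and 13.7 in WT, against 7.68 and 8.91 in KO. At Pcdhga11 (37755153 to 37756046) it was 11.6 and 8.33 in WT, against 6.58 and 6.65 in KO. At both genes the WT values lie above the KO values with no overlap. At Pcdhgb7 (37751036 to 37751884) the fold was 11.5 and 12.3 in WT, against 7.71 and 12.7 in KO, and at Pcdhgb8 (37761222 to 37762152) it was 11.4 and 20.1 in WT, against 13.3 and 11.1 in KO. There the genotypes overlap. Pcdhga10, which lies between Pcdhgb6 and Pcdhgb7, had a peak in WT164 alone, at a fold of 4.6.

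**Figure D2:**
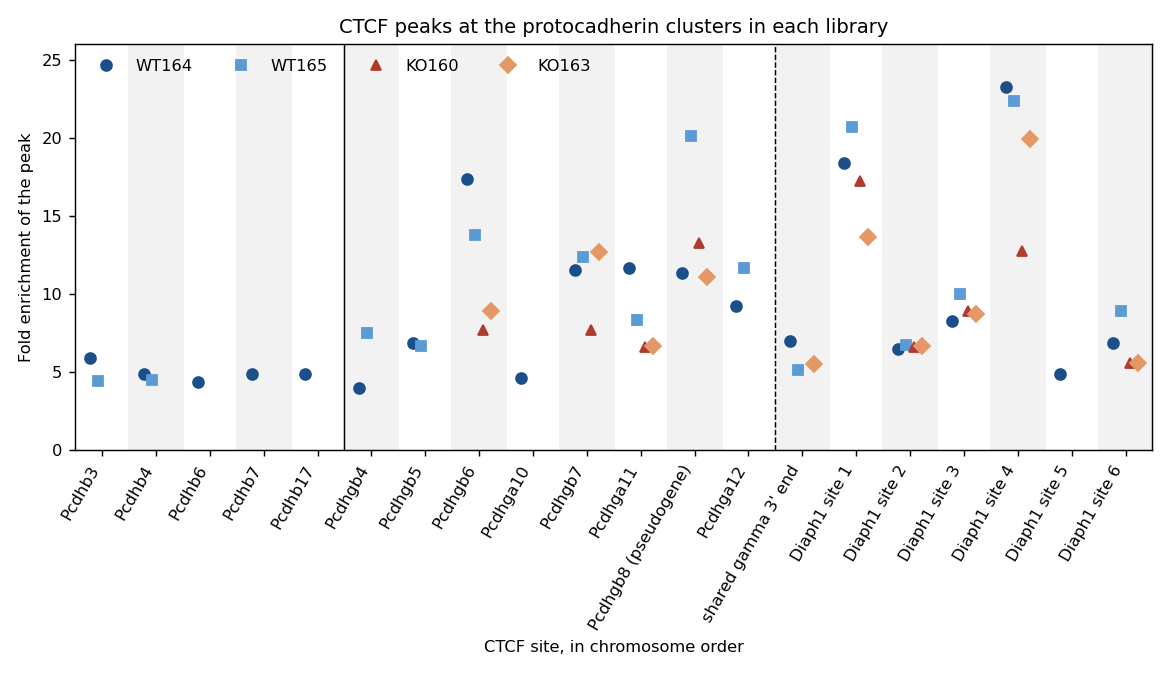
Fold enrichment of each CTCF site of the cluster regions in the 4 CTCF libraries, WT as blue circles and squares and KO as red triangles and orange diamonds, with no point where no peak was called. The 5 starts Pcdhb3, Pcdhb4, Pcdhgb4, Pcdhgb5 and Pcdhga12 have WT points alone, while Pcdhgb6, Pcdhgb7, Pcdhga11 and Pcdhgb8 have points in all 4 libraries.

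Across the genome, the share of WT sites without a KO peak was lower the stronger the sites were in WT. With all sites called in both WT libraries ranked by mean WT percentile of -log10 q and cut into 10 groups of equal size, it was 60.7% in the weakest group, 38.0% in the next and 3.31% in the fifth. Pcdhb3, Pcdhb4 and Pcdhgb4 lay in the weakest group, and Pcdhgb5, at a mean percentile of 27.6, in the next. Pcdhga12 lay in the fifth, where 73 of 2204 sites had no KO peak. Its mean percentile was 56.5, and 28 of the genome's 2965 lost sites (0.944%) were as strong or stronger. Of the 9 sites called in all 4 libraries, 5 had both WT folds above both KO folds, against 50.1% of such sites in the genome, and 0 had both below, against 3.4%.

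The CTCF summits sat just upstream of the gene starts. Over 30 peaks at starts the summit lay at -240 to 252 bp from the start (negative is upstream), with a median of -102.5 bp, and 29 of 30 were upstream. At Pcdhgb6 the summits were at -141 and -142 bp in WT, against -129 and -104 bp in KO. At Pcdhga11 they were at -41 and -42 bp in WT, against -72 and -105 bp in KO. The summits called in KO thus lay on the same side of these starts as those in WT. The exception to the upstream position was Pcdhga12, with a summit at -26 bp in WT164 and at 252 bp in WT165. The variable exons resemble each other in sequence, and how reads that map to several of them were treated is not given in the sources used here, so a peak's assignment to 1 gene is uncertain to that extent.

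**Figure D3:**
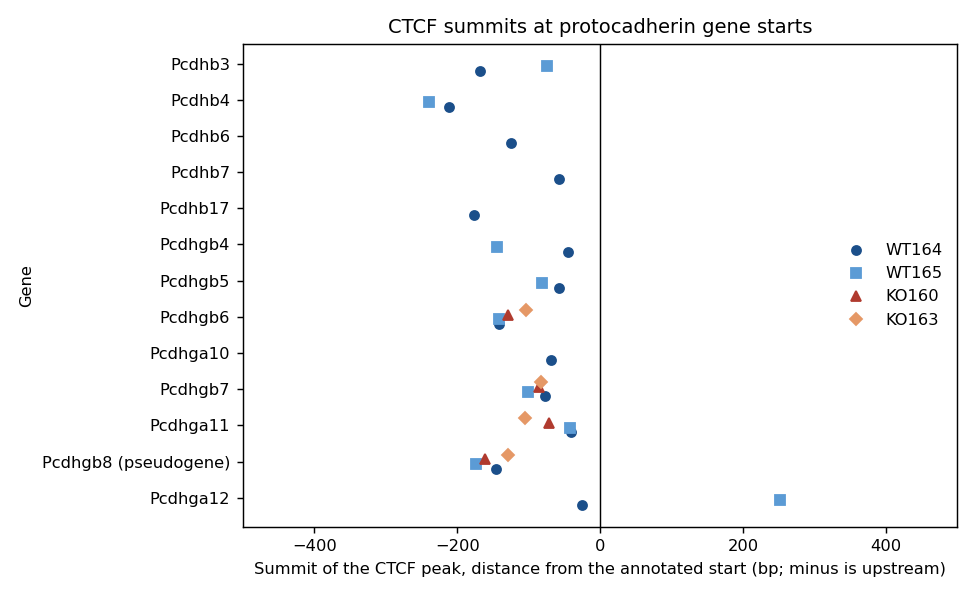
Distance of each CTCF summit from the start of its gene in bp, 1 row per gene, WT as blue circles and squares and KO as red triangles and orange diamonds, negative upstream. Nearly all summits lie upstream of the start, with 1 Pcdhga12 summit at 252 bp downstream.

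Of the 6 CTCF sites beyond the gene starts that were called in both WT libraries, 5 were called in every library, against 72.3% in the genome. The site at the shared gamma 3′ end (37841345 to 37841722) had a fold of 6.96 and 5.12 in WT, against 5.49 in KO163, with no peak in KO160. Inside Diaph1, which encodes a formin that assembles actin, the strongest site (37882839 to 37884598) had folds of 23.3 and 22.3 in WT, against 12.7 and 19.9 in KO. The site at 37851849 to 37853127 had folds of 18.4 and 20.7 in WT, against 17.2 and 13.6 in KO. Of the 6 Diaph1 sites, 5 were called in all 4 libraries and 1 in WT164 alone. Over the sites called in both WT libraries, the median of the mean WT percentile was 51.2 (6.09 to 83.3) for the 9 start sites and 46.4 (24.5 to 96.8) for the 6 others. With the sites of WT164 alone included, it was 19.3 (2.88 to 83.3) for 13 start sites and 37.7 (9.99 to 96.8) for 7 others, so which class was stronger depended on those sites.

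Active promoter marks lay at few members. H3K4me3 was within 1 kb of the start of 1 member in WT and 3 in KO. The shares were 52.5% and 54.7% over the 17492 genes off chromosome 18 with a listed start. The member with H3K4me3 in both was Pcdhgc3, a C-type gene, with a fold of 8.57 over 1678 bp in WT, against 9.90 over 1862 bp in KO. By -log10 q these lay at percentiles of 47.5 and 66.3 of their lists. KO alone had short intervals at Pcdhgc4 (292 bp, fold 3.88) and Pcdhgb6 (181 bp, fold 3.30), at percentiles of 11.2 and 1.92 of the KO list. Another KO interval, of 919 bp (fold 5.27), began at 37808341, just after the Pcdhgc3 interval, which ended at 37808218. KO-only intervals were 3 of 5 here, against 17.2% of KO intervals in the genome. That count takes the adjoining interval as separate and includes both weak ones. WT-only intervals were 0 of 2, against 18.3%. Both WT intervals had a KO counterpart, against 81.7% in the genome.

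With 1 library per genotype, WT 2 and KO 4, there is no replicate check of H3K4me3. The longest H3K27ac list, at 51311 peaks, is also numbered KO 4. Whether both came from the same animal is not stated, so the 2 marks in KO 4 may not be separate observations. More endothelial markers, and more stellate cell and fibroblast markers, also had H3K4me3 in KO than in WT, whereas Kupffer cell markers did not differ. H3K4me3 lay at 3 of 6 endothelial markers in WT and 6 of 6 in KO, with none at Pecam1, Kdr or Tek in WT. It lay at 2 of 6 stellate cell and fibroblast markers in WT and 4 of 6 in KO, with none at Des or Col1a1 in either. It lay at 0 of 6 Kupffer cell markers in both, at 1 and 2 of 6 cholangiocyte markers and at 0 and 1 of 6 neuron markers. The part of these cells in the protocadherin intervals was not tested.

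H3K27ac formed 9 regions, all in the gamma region and none in the alpha or beta region. It lay within 1 kb of the start of 2, 1 and 1 of the 57 members in WT 1, WT 2 and WT 4, against 52.1%, 52.9% and 50.5% of genes off chromosome 18. In KO 2, KO 3 and KO 4 it lay at 1, 2 and 2 members, against 51.5%, 53% and 57.2%. Of the 9 regions, 6 were called in all 6 libraries, which is 6 of the 6 called in every WT library, against 91.7% in the genome. None was called in all KO and no WT libraries (2.32% in the genome) or the reverse (0.399%). At the Pcdhgc3 start the mark covered 3136, 2170 and 2887 bp in WT, against 1414, 2218 and 3251 bp in KO, and the genotypes overlap. At Pcdhgc4 it was called in WT 1 (611 bp), KO 3 (991 bp) and KO 4 (2345 bp) and in no other library. A region inside the Pcdhgc5 span (37821657 to 37829990) covered 6196, 4309 and 3715 bp in WT, against 4225, 5357 and 8334 bp in KO.

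The number of H3K27ac peaks in the gamma region was 8, 8 and 7 in WT, against 9 in each KO library, with no overlap and a two-sided exact permutation p of 0.1, the smallest that 3 against 3 allows. This count rests on how intervals were split: the merged regions with a peak were 7, 6 and 6 in WT, against 6, 7 and 9 in KO, which overlap (exact permutation p = 0.7). Across the whole lists the KO to WT ratio of H3K27ac peak numbers was 1.12. Covered length in the gamma region was 24899, 19542 and 16389 bp in WT (20277 ± 4302, SD, n = 3) and 17729, 21509 and 36768 bp in KO (25335 ± 10080, SD, n = 3). The difference of 5059 bp was smaller than the spread between KO libraries (two-sided exact permutation p = 0.6), and without KO 4 it was -658 bp. KO 4 has the longest H3K27ac list, at 51311 peaks. H3K27ac lay at 6 of 6 endothelial markers in every library, and at 4, 3 and 3 of 6 stellate cell and fibroblast markers in WT and 6, 5 and 6 in KO. It lay at 0 to 3 of 6 Kupffer cell markers in WT and 1 to 4 in KO, at 1 of 6 cholangiocyte markers in WT and 1 to 2 in KO, and at 0 of 6 neuron markers except 1 in KO 4. The part of these cells in the H3K27ac counts was not tested.

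**Figure D4:**
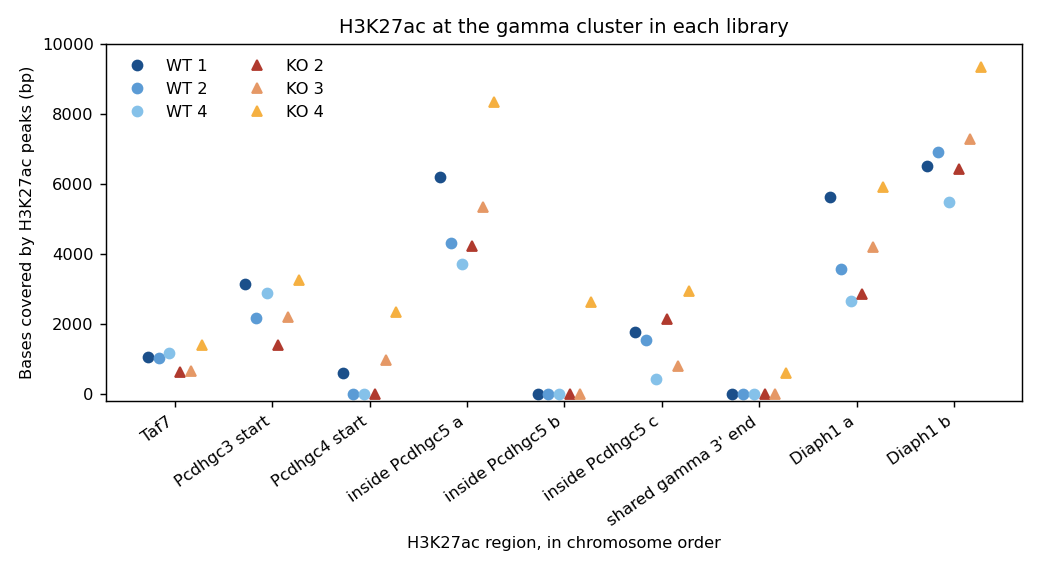
H3K27ac covered length in bp of each of the 9 regions of the gamma region, in the 3 WT libraries (blue circles) and 3 KO libraries (red to yellow triangles), with 0 where no peak was called. KO 4 has the highest value in each of the 9 regions, and the values of KO 2 and KO 3 lie among or below those of WT in most.

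**Figure D5:**
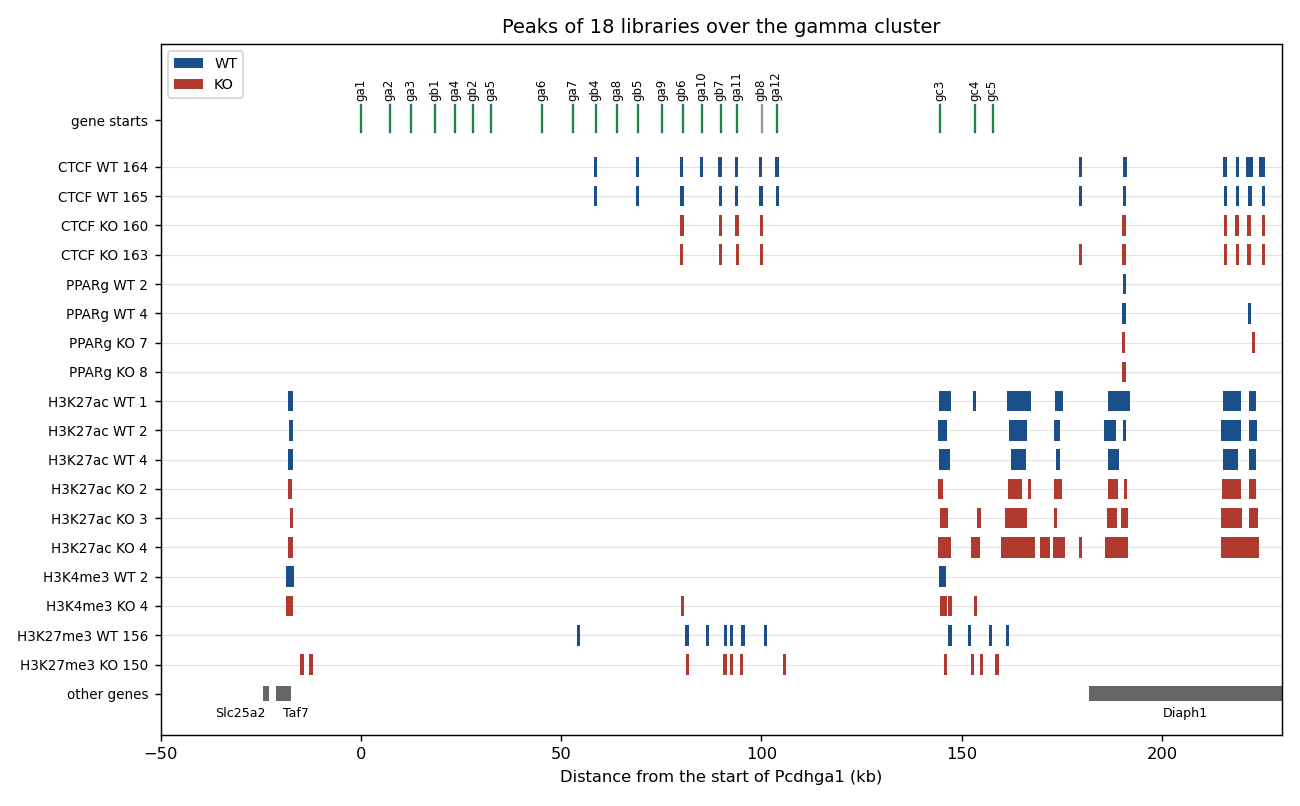
Peaks of the 18 libraries over the gamma cluster against distance from the Pcdhga1 start in kb, WT in blue and KO in red, with peaks narrower than 0.8 kb drawn 0.8 kb wide. CTCF lies at some of the variable gene starts between Pcdhgb4 and Pcdhga12, at the gamma 3′ end and in Diaph1. H3K27ac and H3K4me3 begin at Pcdhgc3, apart from Taf7 and 1 H3K4me3 interval at Pcdhgb6, and H3K27ac also lies in Diaph1.

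The CTCF sites at protocadherin starts lay outside the active marks. Of the 13, 0 overlapped H3K27ac of any library, against 82.5% of CTCF sites at gene starts off chromosome 18. The overlap with H3K4me3 was 1 of 13 (Pcdhgb6 in KO), against 78.6%, and with PPARg 0 of 13, against 16.5%. Of the 7 other CTCF sites, 5 overlapped H3K27ac, against 20.9% of CTCF sites away from gene starts, and 1 of these 5, at the gamma 3′ end, did so in KO 4 alone. Taf7, which encodes a subunit of the general transcription factor TFIID and lies between the beta and gamma genes, had H3K4me3 at a fold of 14.3 in WT, against 15.6 in KO.

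H3K27me3 was called in 14 intervals in WT, against 12 in KO, with folds between 2.80 and 4.15. Their median fold was 3.41 in WT and 3.70 in KO, beside whole-list medians of 3.43 and 3.59. The alpha region held 2 in WT, against 1 in KO, the beta region 1 and 0, and the gamma region 11 and 11. Of the 14 WT intervals, 5 (35.7%) had a KO counterpart, against 45.3% of WT intervals in the genome, and 9 (64.3%) had none, against 54.7%. Of the 12 KO intervals, 7 had no WT counterpart, against 61.6%. Within 1 kb of a start there was H3K27me3 at 6 of 57 members (10.5%) in each library, against 5.01% of genes in WT and 6.62% in KO.

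In the 2 kb downstream of the starts, H3K27me3 was present in WT156 at each of the 4 starts whose CTCF site was called in all libraries (Pcdhgb6, Pcdhgb7, Pcdhga11 and Pcdhgb8), against 3.37% of such starts off chromosome 18. In KO150 it was present at 3 of these 4, against 4.52%. At the 5 starts whose CTCF site had no KO peak it was present at 0 in WT156, against 3.55%, and at 1 (Pcdhga12) in KO150, against 5.58%. Of the 4 starts with a CTCF site in WT164 alone, 2 had H3K27me3 in WT156 (Pcdhb7 and Pcdhga10), against 5.02%, and 0 in KO150, against 4.7%. Of the 45 starts with no CTCF site, 2 had it in WT156 (Pcdhac2 and Pcdhga7), against 4.98%, and 3 in KO150 (Pcdhgc3, Pcdhgc4 and Pcdhgc5), against 6.36%. This arrangement was noticed after the values were seen and comes from 1 library per genotype, with no replicate check. None of these intervals remained at a deposited -log10 q of 3 or more, but most intervals of both lists miss that cut. A -log10 q of 2.19 already lay at percentile 92.9 of WT156, and 2.39 at percentile 89.6 of KO150.

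PPARg was called at 0 of 57 member starts in all 4 libraries, against 9.91% of genes in both WT lists and 14.4% and 13.8% in KO. The 1 PPARg site shared by all libraries (37851940 to 37852622) lay inside Diaph1, beyond the gamma 3′ end, with folds of 9.56 and 10.0 in WT, against 13.5 and 8.98 in KO. It overlapped a CTCF site and an H3K27ac region. In the genome, 92% of sites called in both WT lists were called in every list and 3.23% in neither KO list, against 0 of 1 here. Of sites in both KO lists, 0 of 1 here were in no WT list, against 31% in the genome. With 1 site, these shares cannot be compared. PPARg WT 4 and KO 7 had 1 further site each in Diaph1, at a fold of 4.12 and 6.01. The WT 4 list reaches down to a -log10 q of 1.31 and the other PPARg lists to 3.0, so the WT 4 site, at 2.22, lies below what the others list.

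Protocadherins outside the clusters were listed by a peak within 1 kb of either end of the gene, whereas members were counted at the start alone. The counts that follow have no genome share by the either-end rule and are not comparable with those of the members. Of 12 such genes, H3K27ac lay at 5, 5 and 3 in WT, against 5, 4 and 6 in KO, and H3K4me3 at 5 in WT, against 4 in KO. CTCF lay at 1 of the 12, Pcdh1, in each of the 4 libraries. A further list held 20 genes taken as regulators of clustered protocadherin promoters (CTCF, cohesin, DNA methylation, Polycomb and other chromatin factors). CTCF lay at 5 and 6 of these in WT, against 5 and 5 in KO. H3K27ac lay at 14 to 18 of these, H3K4me3 at 15 in both genotypes and H3K27me3 at 0 in both. The Ctcf gene itself had a CTCF peak in all 4 CTCF libraries and H3K27ac in all 6.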

How the data were processed

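The tools named, with no role, per the submitters' processing notes are MACS2 2.1.2, BWA 0.7.12, deepTools 3.1.3 and Picard 1.77, with the build mm10. The control used for peak calling and the treatment of multi-mapped reads are not given in the sources used here. Each of the 18 libraries has its own deposited list, whose values are the authors' score, fold enrichment (a ratio), -log10 p and -log10 q. Blacklisted regions and patches are absent from the CTCF lists, per their file names. Genes came from a RefSeq table of GRCm38.p6, and all 78 genes of the 9 fixed lists were matched.

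A peak was counted once, in the nearest cluster. Peaks of 1 target that overlapped by at least 1 bp were merged into sites, and an H3K4me3 interval listed more than once was kept once, with its best q. A percentile is a peak's rank by -log10 q within its own list. The merging and classing of peaks were tested on simulated data. Libraries were compared by two-sided exact permutation tests, computed with Python 3.11.15 and numpy 2.4.6 and checked on a fixed example. The labels number the libraries but do not state that they came from separate animals, so these p-values measure the spread between libraries. Genes named are members with a peak within 1 kb of their start, other genes of the regions that hold a peak, every class of CTCF site, and Ctcf. Members and lists were chosen with earlier results of these data known.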

Additional observations from a re-analysis of the deposited data

How the results depend on the processing

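Of 171 values recomputed under other settings, 151 stayed within the limits set for a change, 19 moved and 1 changed sign. For the difference in H3K27ac covered length only the sign was judged. The 151 include its differences in the alpha and beta regions, which hold no H3K27ac peak and were 0 under every setting. The tally therefore overstates how stable the results were. CTCF sites called in both WT libraries fell from 15 to 8 and lost sites from 5 to 2 (Pcdhga11 and Pcdhga12, 16.6% lost in the genome) at a -log10 q of at least 10. Pcdhga11 was lost there only because its KO peaks, at a -log10 q of 7.43 in KO160 and 7.28 in KO163, fell below the cut. With the 4 lists shortened to 18597 peaks each there were 8 sites and 1 was lost, Pcdhga12, against 3.96% in the genome. Pcdhb3, Pcdhb4, Pcdhgb4 and Pcdhgb5 did not reach either stricter list of WT sites. By summits within 150 bp, 4 of 14 were lost, without Pcdhga12, whose WT summits lie apart. Leaving out 1 library gave 15 to 20 WT sites, 5 to 10 lost (10 without WT165), 9 to 10 retained and 0 gained. With 20 kb each side, 5 CTCF sites were retained.

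At a -log10 q of at least 3, 2 H3K27ac regions were in every library and H3K4me3 had 3 KO intervals. H3K27me3, whose lists lie mostly below this cut, had 0 intervals and 0 bp in both genotypes. With 100 kb each side, H3K4me3 had 6 intervals over 7511 bp in WT and 8 over 8558 bp in KO, and 3 PPARg sites were in every library. PPARg sites in WT alone or in KO alone were 0 to 1 when 1 library was left out (1 without WT 2 and 1 without KO 8). The H3K27ac difference in the gamma region ranged from -658 bp without KO 4 to 8862 bp without KO 2, and was 1059 bp when divided by each list's total covered length. As a replicate block on numbers 2 and 4 it was 9283 bp (pairs -1813 and 20379 bp, exact sign-flip p = 1.0, smallest 0.5). Over 57360 regions, libraries of equal number did not deviate together (correlations of -0.190 and -0.205), so the numbers were not treated as pairs. WT 2 with KO 4 and WT 4 with KO 2 gave 0.220 and 0.207, and whether numbers were exchanged was not tested. Depth is unknown, so a site missing from a list was not called there, and absence of binding was not shown.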
